A study of Mus musculus with 2 samples.

Results

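Transcripts of 7 voltage-gated potassium channel genes of the Kv1 and Kv3 families were followed in single nuclei of the mouse brainstem. The genes were Kcna1, Kcna2, Kcna4 and Kcna6 (Kv1) and Kcnc1, Kcnc2 and Kcnc4 (Kv3). They were chosen by name as channels linked to fast firing, all 7 were present among the 25556 genes of the count matrix, and each had at least 651 UMIs in either library. The study compared 1 female wild-type (WT) mouse with 1 female mouse heterozygous for the Scn1a A1783V knock-in allele (HET), a model of Dravet syndrome, at post-natal day 41. The HET animal carried the altered allele throughout the body, since it came from a cross of a floxed Scn1a male with a Sox2-Cre female. The WT animal was a littermate, both were on the C57Bl6 background and neither was treated. With 1 library per genotype, animal and genotype cannot be told apart, no test between genotypes could be made, and every interval given here is a 95% interval for counting error only.

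A voltage-gated potassium channel is built from 4 alpha subunits, which can be of mixed kinds within a family. Kv1 channels open near threshold and sit on the axon, where they hold back repetitive firing. Kv3 channels open only at strongly depolarised voltages and close quickly, so that a neuron can recover between closely spaced spikes. Both families are prominent in auditory, vestibular and other fast-firing circuits of the brainstem, where SCN1A, the sodium channel Nav1.1, drives the upstroke of the spike.

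The WT library held 9259 nuclei and 70301390 UMIs (unique molecular identifiers, each counting 1 captured RNA molecule), and the HET library 9022 nuclei and 66176778 UMIs, with medians of 5456 and 5646 UMIs a nucleus. Nuclei carried 1 of 16 deposited cluster names, of which 9 were neuronal, and 1 of 34 subcluster numbers. Neuronal clusters made up 66.1% of WT and 59.8% of HET nuclei. Several clusters came mostly from 1 library: neuron.5 held 42 WT and 332 HET nuclei, neuron.6 held 120 and 5, and oligodendrocyte subclusters 6 and 8 held 39 and 827, and 825 and 35. Ratios between libraries were therefore taken only where both libraries had 30 or more nuclei, which left 12 clusters and 28 subclusters. The defining markers matched most names, with Mog at 921 CPM (counts per 1000000 UMIs of the group) in oligo and Slc1a2 at 2697 CPM in astro. The name of the micro cluster was borne out only in part, since a second deposited label agreed for 108 of its 405 nuclei and the neuronal gene Snap25 stood at 491 CPM in it. The second label agreed for even fewer nuclei of fibro (40 of 266), and for 209 of 344 in endo and 88 of 174 in epend.1. The libraries shared 23 barcodes. Scn1a itself stood at 380.2 CPM in WT and 420.4 CPM in HET, a value that does not check the labels because the knock-in leaves the transcript in place.

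Promoter sequences, from RefSeq on GRCm38.p6 and running from 250 bases before to 50 bases after a transcription start, were found for 6 of the 7 genes. The promoters of 3 genes are shown. Kcna6 had the largest ratio between libraries of the 7 genes over all nuclei, while Kcnc1 and Kcnc2, of the same family, had contrasting distributions among neurons. Capitals mark matches to the GC box (GGGCGG), the cAMP response element (CRE, TGACGTCA), its shorter form TGACGT, which also lies within the full element, and the TATA box (TATAAA), on either strand.

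Kcna6: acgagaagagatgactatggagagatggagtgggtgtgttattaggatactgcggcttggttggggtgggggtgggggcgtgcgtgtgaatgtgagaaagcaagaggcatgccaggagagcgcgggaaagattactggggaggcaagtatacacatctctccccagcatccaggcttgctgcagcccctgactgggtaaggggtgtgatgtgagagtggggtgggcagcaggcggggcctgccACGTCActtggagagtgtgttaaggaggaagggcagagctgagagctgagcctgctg

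Kcnc1: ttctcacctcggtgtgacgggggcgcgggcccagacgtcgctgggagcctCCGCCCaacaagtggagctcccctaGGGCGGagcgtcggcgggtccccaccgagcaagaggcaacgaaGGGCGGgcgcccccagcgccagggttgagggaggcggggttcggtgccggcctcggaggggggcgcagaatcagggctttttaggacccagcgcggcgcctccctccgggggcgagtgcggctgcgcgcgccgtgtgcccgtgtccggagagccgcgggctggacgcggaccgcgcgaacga

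Kcnc2: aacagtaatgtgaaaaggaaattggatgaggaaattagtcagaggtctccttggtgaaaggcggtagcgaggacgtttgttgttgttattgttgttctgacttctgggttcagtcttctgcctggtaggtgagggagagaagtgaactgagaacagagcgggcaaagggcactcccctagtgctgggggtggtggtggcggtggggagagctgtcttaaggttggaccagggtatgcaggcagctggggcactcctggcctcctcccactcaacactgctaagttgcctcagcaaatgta

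The Kcna6 window lies at chr6:126740625-126740924 on the minus strand and held 1 match to the short CRE form and no GC box. The Kcnc1 window, at chr7:46396218-46396517 on the plus strand, held 3 GC boxes and 41 CpG dinucleotides, with 74.7% G or C. The Kcnc2 window, at chr10:112270871-112271170 on the plus strand and 1 of 4 listed for the gene, held none of the motifs, 5 CpG dinucleotides and 52.7% G or C. Among 32851 mouse promoters of the same length the median was 7 CpG dinucleotides and 52.7% G or C, 35.7% held a GC box, 7.51% the short CRE form, 1.79% the full CRE and 13.6% the TATA box. The windows of Kcna2, Kcna4 and Kcnc4 lay between 66.7% and 67.7% G or C and held 1, 3 and 1 GC boxes. A match is a description of the letters in the window only.

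The genes themselves lie on 5 chromosomes of GRCm38 in the GENCODE vM21 annotation. Kcna1 (chr6:126640397-126646384) and Kcna6 (chr6:126708329-126740674) lie near each other on the minus strand of chromosome 6. Kcna2 (chr3:107101146-107115005, plus strand) and Kcnc4 (chr3:107438303-107459552, minus strand) both lie on chromosome 3. Kcna4 (chr2:107290639-107298502), Kcnc1 (chr7:46396497-46438704) and Kcnc2 (chr10:112271121-112467024) are on plus strands. The study used a 3' gene expression platform on nuclear RNA, which holds unspliced transcripts. Whether its counts grow with the length of a gene was not tested, so any order between genes is descriptive. Levels are set beside each other first per kb of the gene. On that scale Kcna1 was highest in neuronal clusters, with 25.1 CPM per kb in WT and 25.8 in HET, followed by Kcna2 with 5.00 and 4.66, Kcnc1 with 2.85 and 2.97, and Kcna4 with 2.44 and 2.36. Kcnc2 (1.71 and 1.74), Kcna6 (1.36 and 1.82) and Kcnc4 (0.566 and 0.481) were lower. The order depended on the length used, because per kb of the longest transcript Kcnc2, which has the longest gene body of the 7, came first with 66.6 and 67.4 CPM per kb, before Kcna1 with 37.2 and 38.3.

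The 7 genes were spread over the neuronal clusters in different ways, and these patterns were read in each library separately. Kcna1 encodes Kv1.1, which dampens repetitive firing. In WT it stood at 296 CPM in neuron.3, 254 in neuron.4, 178 in neuron.5, 148 in neuron.1, 135 in neuron.2 and 9.85 in neuron.7. In HET the same clusters had 253, 261, 192, 133, 143 and 23.2 CPM. Both libraries thus had most Kcna1 in neuron.3, in which the glycine transporter gene Slc6a5 was at 166 CPM, and neuron.4, in which the vesicular glutamate transporter gene Slc17a7 was at 125 CPM. Both had least in neuron.7, in which the serotonergic genes Tph2 and Slc6a4 were at 1298 and 709 CPM. The order of neuron.3 and neuron.4 was not the same in the libraries, and in HET their intervals (236 to 269.9 and 247 to 275 CPM) overlapped.

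Kcna2, whose product Kv1.2 joins Kv1.1 in axonal channels, was also highest in neuron.3, at 86.2 CPM in WT and 107 in HET, and low in neuron.7, at 21.7 and 20.6 CPM. In neuron.5, where Kcna1 was at 178 and 192 CPM, Kcna2 was at 19.1 CPM in WT, the lowest of the 6 clusters, and at 58.7 CPM in HET, on 3 and 75 UMIs. Kcna6, encoding Kv1.6, was at 75.1 and 104 CPM in neuron.4 and at 27.6 and 28.3 CPM in neuron.7. Kcna4, which encodes the rapidly inactivating Kv1.4, went the other way. It was at 21.5 (20.2 to 22.8) CPM in WT and 21.6 (20.2 to 23.1) in HET in neuron.1, and at 1.82 (0.376 to 5.32) and 3.66 (1.95 to 6.26) CPM in neuron.3, where Kcna1 and Kcna2 were high. The neuron.3 value rested on 3 and 13 UMIs.

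Among the Kv3 genes, Kcnc1, encoding Kv3.1, was highest in neuron.5, a cluster with the granule cell gene Gabra6 at 376 CPM. It stood at 242 (171 to 332) CPM in WT and 206 (182 to 232) in HET there, against 55.2 and 82.5 CPM in neuron.7. Kcnc2, encoding Kv3.2, was nearly the mirror of that order. It was at 492 CPM in WT and 410 in HET in neuron.2, 363 and 388 in neuron.1, and 297 and 245 in neuron.7, and only at 43.5 and 68.5 in neuron.4 and 25.4 and 26.6 in neuron.5. By subcluster Kcnc2 ran from 30.4 and 27.9 CPM in subcluster 15 to 739 and 697 CPM in subcluster 12, which is 24.3-fold in WT and 25.0-fold in HET. Kcnc4, encoding the inactivating Kv3.4, stayed between 2.43 and 25.4 CPM in WT and between 2.58 and 12.8 CPM in HET, in clusters where it often had fewer than 20 UMIs.

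**Figure D1:**
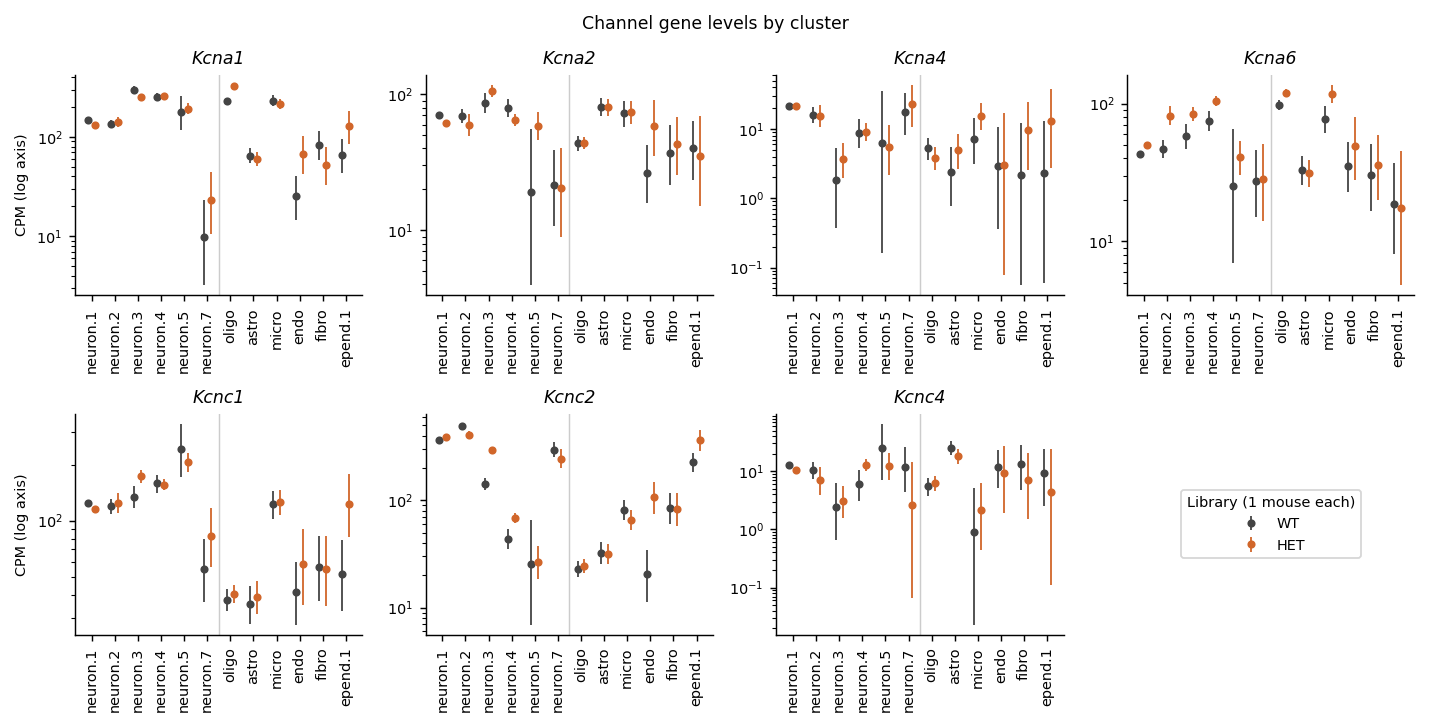
Level of each of the 7 channel genes in CPM (log axis) in the 12 clusters of 30 or more nuclei in both libraries, neuronal clusters to the left of the grey line, with WT (dark) and HET (orange) as points and bars for the exact Poisson 95% interval. Kcna1 was at its neuronal minimum in neuron.7 (9.85 CPM in WT, 23.2 in HET), where Kcnc2 was at 297 and 245 CPM, and Kcnc2 was at 25.4 and 26.6 CPM in neuron.5, where Kcnc1 was at 242 and 206.

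The contrast also showed inside 1 cluster. In neuron.2, subcluster 12 had Kcnc2 at 739 CPM in WT and 697 in HET, with Kcna1 at 60.9 and 67.3 and Kcna6 at 24.0 and 34.8 CPM. Subcluster 14 had Kcnc2 at 243 and 189 CPM, with Kcna1 at 213 and 203 and Kcna6 at 69.0 and 119 CPM. Neuronal nuclei of 14 subclusters numbered 30 or more in both libraries, and over these the profile of a gene on the log2(CPM + 1) scale in WT could be set beside its profile in HET. The Pearson r between libraries was 0.94 for Kcna1, 0.94 for Kcnc2, 0.93 for Kcna6, 0.79 for Kcna2, 0.70 for Kcna4, 0.50 for Kcnc1 and 0.44 for Kcnc4, the gene with the fewest UMIs. Between genes, r was 0.67 in WT and 0.91 in HET for Kcna1 with Kcna2, 0.80 and 0.70 for Kcna2 with Kcna6, -0.43 and -0.71 for Kcna1 with Kcna4, -0.33 and -0.34 for Kcna1 with Kcnc2, and -0.29 and -0.70 for Kcnc1 with Kcnc2. The 14 points share 2 libraries and differ in depth, and subclusters were formed on the same nuclei, so these values are descriptive.

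**Figure D2:**
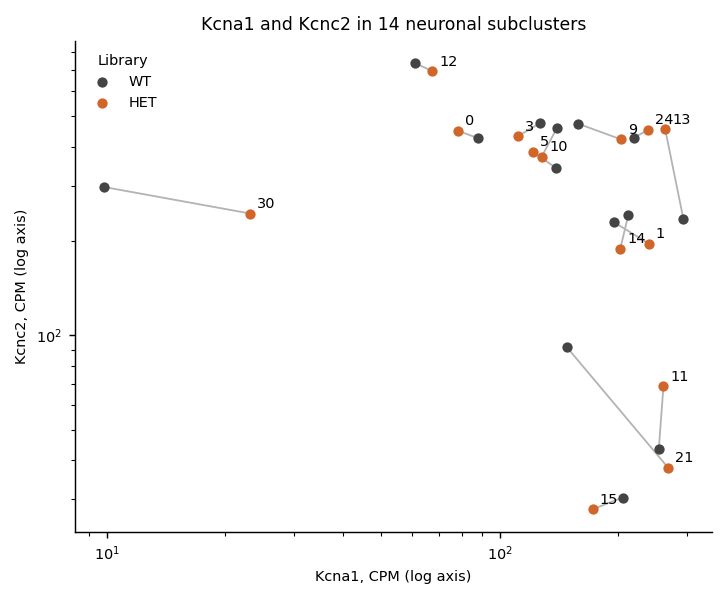
Kcna1 level (x axis) against Kcnc2 level (y axis) in CPM, both on log axes, in the neuronal nuclei of 14 subclusters, with a grey line that joins the WT (dark) and HET (orange) point of each numbered subcluster. Subclusters with the most Kcnc2, such as subcluster 12 (739 CPM in WT and 697 in HET), had low Kcna1 (60.9 and 67.3 CPM), while subcluster 30, which is neuron.7, had little Kcna1 (9.85 and 23.2 CPM) with Kcnc2 at 297 and 245 CPM.

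Nuclei of the neuronal clusters were also grouped by their transmitter genes, requiring at least 5 UMIs of glutamatergic or inhibitory markers and 5 times as many as of the other kind, which favours deeply sequenced nuclei. This left 134 WT and 225 HET nuclei with glutamatergic markers and 1107 and 785 with inhibitory markers. Kcnc2 was at 207 CPM in WT and 252 in HET in the glutamatergic nuclei, and at 345 and 381 CPM in the inhibitory nuclei. Within the inhibitory nuclei, Kcnc2 and Kcna1 ran in opposite directions with Slc6a5, the marker of glycinergic neurons. Nuclei with at least 5 Slc6a5 UMIs (308 WT and 170 HET) had Kcnc2 at 269.9 and 282.4 CPM and Kcna1 at 241 and 266 CPM. Nuclei with 0 Slc6a5 UMIs (136 and 181) had Kcnc2 at 612 and 488 CPM and Kcna1 at 97.8 and 94.3 CPM. Slc6a5 is itself an inhibitory marker, so nuclei without it had to meet the rule on Gad1, Gad2 or Slc32a1. Median depth also differed, at 17968 UMIs in nuclei with Slc6a5 and 9022 in nuclei without it.

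For each gene, the 3 genes most alike in profile over the 14 subclusters were taken from 15206 genes, ranking by the smaller r of the 2 libraries. Kcna1 was most like Atp1b3 (0.91), a subunit of the sodium pump, 4930419G24Rik (0.90) and Gm37459 (0.90). Kcnc2 was most like Dok6 (0.92), Dlgap2 (0.91), which encodes a postsynaptic scaffold protein, and Khdrbs2 (0.90). Kcnc1 was nearest to Fam78b (0.89), Nrg2 (0.88), a neuregulin, and Sh3gl2 (0.88), an endophilin of synaptic vesicle recycling. Kcna2 was nearest to Pnkd (0.87), Lats2 (0.85) and Cchcr1 (0.85), and Kcna4 to Zcchc12 (0.85), Hap1 (0.83) and Tmem130 (0.83). The likeness was lower for Kcna6, with Brms1l (0.78), Abcf1 (0.78) and Lifr (0.76), and for Kcnc4, with 2810410L24Rik, Mcee and Gm12258 (each 0.70). These are the extremes of many genes over few points.

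Outside neurons, Kcna1 and Kcna6 stood out in oligodendrocytes. In the 4131 nuclei of the oligo cluster whose second label also named that type, the level of Kcna1 was 187% (181 to 193%) and that of Kcna6 215% (205 to 227%) of the level in neuronal clusters, both libraries together. Kcna2 was at 65.7%, Kcnc4 at 53.2%, Kcnc1 at 31.5%, Kcna4 at 23.3% and Kcnc2 at 6.97% of the neuronal level there. Genes that mark neurons were taken as a background for these percentages, with Rbfox3 at 10.8%, Syt1 at 8.56% and Snap25 at 21.0%, and the transmitter genes Slc6a5 at 23.2%, Gad1 at 26.5%, Gad2 at 30.1%, Slc17a6 at 52.5% and Slc32a1 at 79.5%. Kcna1 and Kcna6 were above all 8 of these genes and Kcnc2 was below all 8, whereas Kcna2, Kcnc4, Kcnc1 and Kcna4 lay within their range. In the 1288 astro nuclei, Kcna2 was at 122% (110 to 135%) and Kcnc4 at 196% (160 to 238%) of the neuronal level, against 39.0% for Kcna1, 62.3% for Kcna6, 30.0% for Kcnc1, 20.9% for Kcna4 and 8.56% for Kcnc2, and the same 8 neuronal genes ran from 7.75% (Syt1) to 75.6% (Slc32a1).

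At equal depth, the share of nuclei with a Kcna1 or Kcna6 UMI was also larger in oligo than in neuronal clusters. This share comes from the same counts as the percentages above and is not separate support for them. Like them, it compares a gene's fraction of all UMIs, not its UMIs per nucleus. Unthinned, 49.9% of oligo and 52.2% of neuronal nuclei had a Kcna1 UMI, at medians of 2738 and 2854 UMIs in oligo against 7729 and 8390 in neuronal nuclei of WT and HET. At an expected depth of 1000 UMIs a nucleus, which left out none of these nuclei, the share with Kcna1 was 23.7% (22.4 to 25.0%) in oligo, 11.1% (10.6 to 11.7%) in neuronal clusters and 4.61% (2.65 to 7.39%) in endo, the endothelial cluster. For Kcna6 the shares were 10.6%, 4.70% and 4.26%, so its neuronal share was close to that in endo. The endo shares include nuclei whose second label did not match. In endo nuclei with matching labels the level of Kcna6 was 57.6% (34.7 to 89.9%) of the neuronal level. For Kcnc2 they were 2.38%, 25.7% and 4.46%, so the share in oligo was at or below that in endo and is read as background. Kcna2 was found in 7.75% (6.36 to 9.33%) of astro and 6.22% (5.79 to 6.68%) of neuronal nuclei at this depth, and these intervals overlap.

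**Figure D3:**
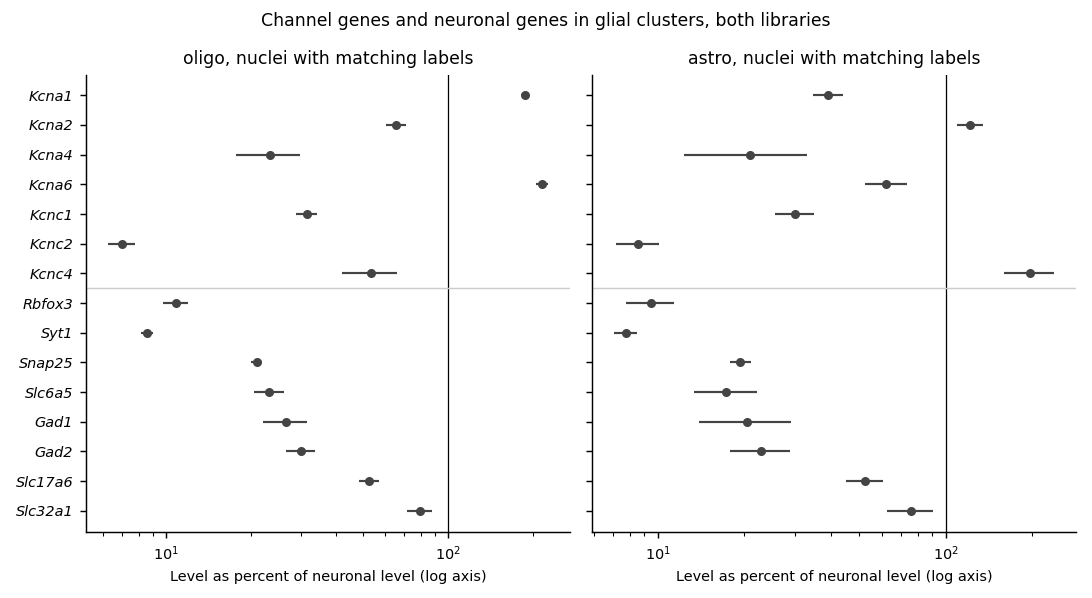
Level of each channel gene (upper 7) and of 8 neuronal genes in oligo (left) and astro (right) nuclei with matching labels, as a percent of its level in neuronal clusters on a log axis, both libraries together, with bars for the 95% counting interval and a line at 100%. In oligo, Kcna1 (187%) and Kcna6 (215%) lay above 100%, while Kcnc2 (6.97%) lay below all 8 neuronal genes, which ran from 8.56% (Syt1) to 79.5% (Slc32a1).

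The genotype comparison asked whether the channels' transcripts differed in the brainstem of a mouse with a defective sodium channel allele. Over all nuclei, the level of Kcna6 was 48.1 (46.5 to 49.8) CPM in WT and 65.9 (63.9 to 67.9) CPM in HET. Kcna1 was at 153 (149.8 to 155.6) and 171 (168 to 174) CPM, and Kcnc1 at 109 and 111 CPM. The levels of Kcna2 were 66.5 and 62.6 CPM, of Kcna4 16.9 and 16.1, of Kcnc2 289.7 and 281.8, and of Kcnc4 11.7 and 9.84 CPM. The log2 ratio of HET over WT was 0.45 (0.39 to 0.52) for Kcna6, 0.16 (0.12 to 0.20) for Kcna1, 0.03 (-0.02 to 0.08) for Kcnc1, -0.04 (-0.07 to -0.01) for Kcnc2, -0.07 (-0.20 to 0.05) for Kcna4, -0.09 (-0.15 to -0.03) for Kcna2 and -0.25 (-0.40 to -0.10) for Kcnc4. None of the 7 reached a ratio of 1.5 in either direction, a size that 21.1% of all 18153 genes with at least 100 UMIs reached.

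For 4 of the 7 genes the difference was smaller than the shift of the whole library. The median log2 ratio of the 7 genes was -0.04, and that of all genes tested -0.10. Set relative to the median of genes with at least 200 UMIs, which was also -0.10, the signs of Kcna2, Kcna4 and Kcnc2 turned, while Kcna1, Kcna6 and Kcnc1 remained higher and Kcnc4 lower in HET. By log2 ratio, the percentile of Kcna6 among all genes was 89.95, that of Kcna1 76.5 and that of Kcnc4 35.7. Log2 ratios also moved with gene length, with a median of -0.37 in the fifth of shortest genes and 0.08 in the fifth of longest, and the median share of ribosomal protein UMIs was 0.696% in WT and 0.407% in HET nuclei. The part of these differences between the libraries in the ratios of the channel genes was not tested.

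Since the libraries differed in their neuronal share, the comparison was repeated in neuronal clusters. There Kcna6 was at 44.0 CPM in WT and 58.8 in HET (log2 ratio 0.42, 0.34 to 0.49), and Kcnc4 at 12.03 and 10.23 CPM (-0.23, -0.40 to -0.07). Kcna1 was at 150.1 and 154.3 CPM, with a log2 ratio of 0.04, less than over all nuclei. Kcna2 was at 69.3 and 64.5 CPM (-0.10), Kcna4 at 19.2 and 18.6 (-0.05), Kcnc1 at 120.2 and 125.5 (0.06) and Kcnc2 at 335.9 and 340.3 (0.02). Again 0 of 7 reached 1.5-fold, against 20% of all genes, and the median of the 7 was 0.02 against -0.09. In neuron.1 alone, the largest cluster with 5032 WT and 4079 HET nuclei, 0 of 7 reached 1.5-fold against 18.6% of all genes, and the median was -0.11 against -0.10.

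**Figure D4:**
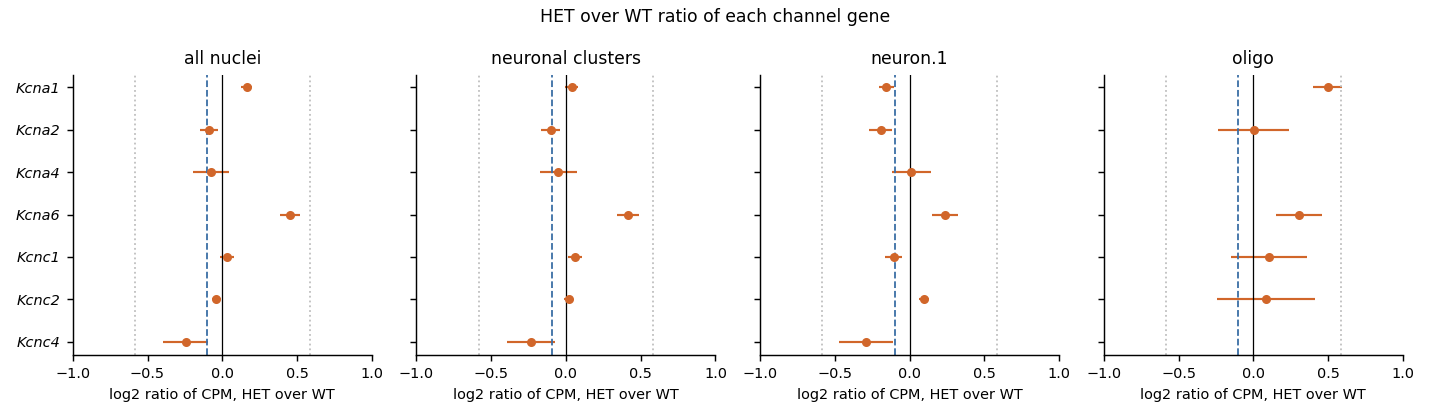
Log2 ratio of CPM, HET over WT, for each channel gene with at least 100 UMIs over all nuclei, in neuronal clusters, in neuron.1 and in oligo, with bars for the exact 95% counting interval, dotted lines at 1.5-fold and a dashed line at the median of all genes tested. Kcna6 lay to the right of 0 over all nuclei (0.45) and in neuronal clusters (0.42), and no point lies outside the dotted lines.

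Kcna6 was the gene whose direction repeated most often. It was higher in HET in 10 of 11 clusters of 30 or more nuclei in both libraries and at least 20 UMIs, 6 with an interval above 0 and none with an interval below it, and in 21 of 25 subclusters, 9 with an interval above 0 and none below. Such counts were not taken over all genes. In neuron.2 Kcna6 was at 47.0 (40.2 to 54.7) CPM in WT and 81.6 (69.5 to 95.2) CPM in HET (log2 ratio 0.80, 0.48 to 1.12). It was the only channel gene of 5 tested past 1.5-fold there, where 15.3% of all genes were. In neuron.3 it was at 57.7 and 83.7 CPM (0.54), in neuron.4 at 75.1 and 104 CPM (0.47), and in neuron.1 at 42.7 and 50.3 CPM (0.24, 0.15 to 0.32). In the mixed micro cluster it was at 77.0 and 118 CPM (0.62), again 1 gene past 1.5-fold of 5, against 14.6% of all genes. The difference was not seen in astro, with 33.1 and 31.1 CPM (-0.09, -0.57 to 0.39).

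By subcluster the log2 ratio of Kcna6 ran from -0.47 in subcluster 19 to 0.87 in subcluster 17. The largest neuronal subcluster by nuclei in HET, subcluster 0, had 39.1 and 40.2 CPM, whereas subcluster 1, which held 1714 WT and 511 HET nuclei, had 47.6 and 73.1 CPM and subcluster 14 had 69.0 and 119 CPM. Within transmitter classes, Kcna6 was at 47.5 and 80.6 CPM in glutamatergic nuclei (0.76, 0.48 to 1.06), where it was 1 gene past 1.5-fold of 5 tested against 11.4% of all genes. It was at 40.6 and 71.5 CPM in inhibitory nuclei with Slc6a5 and at 34.1 and 34.7 CPM in inhibitory nuclei without it. A limit of these values is the antisense gene Gm26673, which overlaps 21991 bases of Kcna6 and stood at 42.2 CPM in WT and 73.9 in HET (log2 ratio 0.81, 0.74 to 0.88). The strand setting of the counting is not given in the sources used here, so reads of Kcna6 and Gm26673 may not have been told apart.

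**Figure D5:**
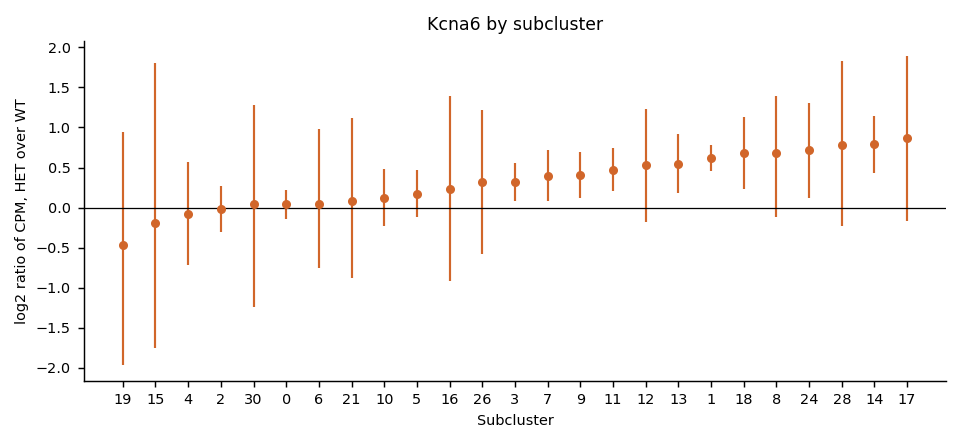
Log2 ratio of Kcna6 CPM, HET over WT, in each of 25 subclusters of 30 or more nuclei in both libraries and at least 20 UMIs, in order of the ratio, with bars for the exact 95% counting interval. In 21 subclusters the ratio lies above 0, and 9 of these have an interval above 0.

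Kcnc2 showed the largest ratio in a neuronal cluster among channel genes with at least 100 UMIs there. In neuron.3 it was at 143 (126 to 163) CPM in WT and 296 (278 to 314) CPM in HET (log2 ratio 1.04, 0.84 to 1.254), and was the 1 channel gene of 5 past 1.5-fold, against 16.4% of all genes. The difference rested on few nuclei. In subcluster 13, which held 130 WT and 219 HET nuclei of neuron.3, 29.2% of WT and 37.0% of HET nuclei had a Kcnc2 UMI, and the 10 nuclei with the most held 70.8% and 63.1% of all its UMIs. There 8 WT and 21 HET nuclei had 10 or more Kcnc2 UMIs, up to 37 and 130. Without such nuclei the WT and HET levels in subcluster 13 were 60.0 and 90.05 CPM, and in the whole of neuron.3 they were 56.1 and 76.2 CPM. Subcluster 27, with 14 WT nuclei (13 of them in neuron.3) and 100 HET nuclei, had 0 Kcnc2 UMIs in WT, which allows up to 27.4 CPM, and 53.9 CPM in HET.

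In other clusters with at least 100 Kcnc2 UMIs the ratio was smaller and lay on both sides of 0, and in endo, with 14 WT and 35 HET UMIs, Kcnc2 was at 20.7 and 107 CPM (2.37, 1.44 to 3.38). It was at 43.5 and 68.5 CPM in neuron.4 (0.66, 0.31 to 1.01), 1 of 5 genes past 1.5-fold against 15.6% of all genes. It was at 228 and 365 CPM in epend.1 (0.68, 0.24 to 1.12), where it was the 1 gene with enough UMIs and 31.2% of all genes were past 1.5-fold. It was at 363 and 388 CPM in neuron.1 (0.10, 0.07 to 0.13). It was lower in HET in neuron.2, with 492 and 410 CPM (-0.26, -0.39 to -0.14), and its 2 main subclusters 12 and 14 had log2 ratios of -0.08 and -0.36.

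Among the large clusters, Kcna1 differed most in oligodendrocytes. In oligo it was at 229.5 (217 to 242) CPM in WT and 324 (311 to 337) CPM in HET (log2 ratio 0.50, 0.40 to 0.59), and the share of its UMIs that came from oligo was 12.5% in WT and 22.6% in HET. None of the 5 channel genes with enough UMIs reached 1.5-fold in oligo, against 19.4% of all genes, but Kcna1 did so with scaling to a median log2 ratio of 0 (0.59) and relative to the median of genes of similar length (0.90). Over all non-neuronal nuclei with matching labels (2725 WT and 3244 HET), Kcna1 was at 166 and 251 CPM (0.59, 0.50 to 0.68) and was 1 of 6 genes past 1.5-fold, against 25% of all genes. The make-up of this set differed between libraries, with 1760 WT and 2371 HET nuclei from oligo. In astro Kcna1 was at 64.8 CPM in WT and 59.9 in HET. The part of the cell mix in the pooled ratio was not tested. The subclusters of oligo were split unevenly between libraries, so the values were also taken within them. Kcna1 was at 122 and 163 CPM in subcluster 2 (768 WT and 789 HET nuclei), 326 and 382 in subcluster 6, 354 and 439 in subcluster 7, and 309.9 and 390.8 in subcluster 8. It was higher in HET in all 4, with intervals above 0 in subclusters 2 and 7 (0.42, 0.21 to 0.63, and 0.31, 0.13 to 0.49). The log2 ratio was 0.33 with each subcluster given the same weight in both libraries, the mean of its shares of the UMIs.

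Neuronal markers were also higher in HET in oligo. Rbfox3 was at 15.4 CPM in WT and 39.3 in HET, Snap25 at 120.5 and 146 and Syt1 at 97.9 and 134, and the juxtaparanodal gene Cntnap2 was at 209 and 360 CPM. Of the oligodendrocyte genes, Mbp had a log2 ratio of 0.34, Mog of -0.18 and Mag of -0.08. The part of the neuronal transcripts in the Kcna1 difference was not tested. Kcna6 was at 96.9 and 119.7 CPM in oligo (0.31, 0.15 to 0.46), but at 73.6 and 72.5 CPM in subcluster 2 (-0.02), where the nuclei of the libraries were nearly equal in number. In neurons Kcna1 was lower in HET in neuron.1, with 148 and 133 CPM (-0.16, -0.21 to -0.10), and in neuron.3, with 296 and 253 CPM (-0.23, -0.39 to -0.06).

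Of the other 4 genes, none was past 1.5-fold in neuron.1 to neuron.4 or in oligo where it had at least 100 UMIs. Of all genes, 18.6, 15.3, 16.4 and 15.6% were past it in neuron.1 to neuron.4 and 19.4% in oligo. Few genes were tested, since Kcna4 and Kcnc4 fell below 100 UMIs in neuron.2 to neuron.4 and in oligo. Kcna2 was lower in HET in 20 of 25 subclusters, 4 with an interval below 0 and 2 with an interval above it. By cluster it was higher in HET in 6 of 11 and lower in 5, with 3 intervals above 0 and 2 below. Such counts were not taken over all genes, of which 39.1% were higher in HET over all nuclei. The log2 ratio of Kcna2 was -0.19 (-0.27 to -0.12) in neuron.1 and 0.31 (0.03 to 0.60) in neuron.3. Kcnc1 was at 125 and 116 CPM in neuron.1 (-0.11) and at 135 and 173 CPM in neuron.3 (0.36). Kcna4 had no cluster with an interval apart from 0, and was at 21.5 and 21.6 CPM in neuron.1, where 87.4% of its WT and 82.9% of its HET UMIs lay. Kcnc4 was at 12.98 and 10.60 CPM in neuron.1 (-0.29, -0.47 to -0.11) and at 5.93 and 12.8 CPM in neuron.4 (1.12, 0.22 to 2.14), the latter on 12 and 66 UMIs.

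Of the remaining Kv1 alpha subunits, Kcna3 had 55 and 88 UMIs in all, at 0.78 and 1.33 CPM. At a log2 ratio of 0.77 (0.26 to 1.28) it was past 1.5-fold, as were 21.1% of all genes. Kcna5 (20 and 18 UMIs) and Kcna10 (10 and 10 UMIs) were barely detected, and Kcna7 was not among the genes of the matrix used here.

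Among 16 companion genes of these channels, none was past 1.5-fold over all nuclei or in neuronal clusters, against 21.1% and 20% of all genes. Their median log2 ratio was 0.12 over all nuclei, with 11 higher and 5 lower in HET, and 0.07 in neuronal clusters, with 9 higher and 7 lower, against -0.10 and -0.09 over all genes. In the fifth of longest genes the median was 0.08 over all nuclei and 0.10 in neuronal clusters. The part of gene length in the companion medians was not tested. The beta subunits, which bind Kv1 channels from the inside and direct them to the axon, were split. In neuronal clusters Kcnab2 was at 27.6 CPM in WT and 38.3 in HET (0.47, 0.37 to 0.56), Kcnab1 at 227 and 255 (0.17) and Kcnab3 at 18.2 and 16.6 (-0.13). In neuron.2, where Kcna6 had its largest cluster ratio, Kcnab2 was the 1 companion gene of 14 past 1.5-fold, against 15.3% of all genes, at 22.8 and 39.3 CPM (0.78, with a lower bound of 0.32). Kcnab1 was the 1 of 14 past it in neuron.4 (15.6% of all genes), and Cntnap2 the 1 of 14 in oligo (19.4%). Over non-neuronal nuclei with matching labels Cntnap2 was at 193 and 346 CPM (0.84), 1 of 15 past it against 25% of all genes. The Cntnap2 ratio was not particular to oligo, since Cntnap2 was also past 1.5-fold and higher in HET in astro (0.78), endo (1.97), fibro and epend.1. In epend.1, 3 of 6 companion genes were past it, against 31.2% of all genes. Other companion genes were past 1.5-fold in further groups, such as Dlg2 in endo.

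Of the scaffold genes, Dlg1 (SAP97) was at 121 and 156 CPM in neuronal clusters (0.37), Dlg2 (PSD-93) at 3093 and 3436 (0.15) and Dlg4 (PSD-95) at 50.1 and 47.4 (-0.08). The juxtaparanodal genes Cntnap2 (Caspr2) and Epb41l3 (protein 4.1B) had log2 ratios of 0.18 and 0.19, and Cntn2 (TAG-1) of -0.11. Among the secreted LGI proteins and their ADAM receptors, which link to Kv1 channels at the synapse and axon, Lgi2 (-0.31), Lgi1 (-0.23) and Adam11 (-0.22) were lower in HET and Adam22 (0.22) and Adam23 (0.12) higher, whereas Lgi3 (-0.03) and Lgi4 (0.03) had intervals across 0. Lgi1, whose loss causes epilepsy, was at 60.7 CPM in WT and 34.9 in HET in neuron.3 (-0.80, -1.19 to -0.40), the 1 companion gene of 15 past 1.5-fold in that cluster, against 16.4% of all genes.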

How the data were processed

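Single-nuclei RNA-seq of the brainstem of 1 WT and 1 HET mouse was analysed from a matrix of raw UMI counts per gene and nucleus deposited by the authors, who aligned reads to mm10 with Cell Ranger and worked in Seurat 4.1, per the labels (the Cell Ranger version and the strand of counting are not given in the sources used here). The deposited cluster names, subcluster numbers and second labels were used as given, with the authors' doublet score and their percent of ribosomal UMIs per nucleus. No nuclei were removed for the values in the report. UMI counts were summed over the nuclei of each library and group and divided by the sum of all UMIs (CPM). Intervals at 95% were exact Poisson for CPM, exact conditional binomial for ratios and Clopper-Pearson for shares, and cover counting error only. A gene was called at 1.5-fold with at least 100 UMIs in both libraries together, and a count of 0 was given a limit of 3 counts. No test was possible with 1 library per genotype. Gene positions came from GENCODE vM21 and promoters from RefSeq. Named genes were the 7 channel genes, the other alpha subunits (1 of which is not reported here), 16 companion genes and, for each channel gene, the 3 genes most alike among those with at least 200 UMIs. The members and lists were chosen with earlier results of these data known. The tools used were scipy 1.17.1, numpy 2.4.6, pandas 2.3.3 and matplotlib 3.10.9 in Python 3.11.15, and the scripts were tested on simulated data.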

Additional observations from a re-analysis of the deposited data

Results flagged for a closer look

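For 4 channel genes the ratio of HET over WT had intervals on opposite sides of 0 in different clusters. These differences between clusters were not tested, since each genotype had 1 library, and each pair was picked as the most extreme among clusters with at least 100 UMIs of the gene whose interval lay apart from 0. For Kcnc2 the log2 ratio was 1.04 in neuron.3 (143 WT and 319 HET nuclei) and -0.26 in neuron.2 (542 and 275 nuclei), a difference of 1.31. For Kcna1 it was 0.50 in oligo (1767 and 2382 nuclei) and -0.23 in neuron.3, a difference of 0.723. For Kcna2 it was 0.31 (0.03 to 0.60) in neuron.3 and -0.29 (-0.57 to -0.01) in neuron.4 (114 and 339 nuclei), a difference of 0.600. For Kcnc1 it was 0.36 in neuron.3 and -0.11 in neuron.1, a difference of 0.467. The neuron.3 cluster is 1 side of all 4 pairs, and its nuclei of subcluster 27 numbered 13 in WT and 100 in HET.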

How the results depend on the processing

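No paired analysis was possible because the genotypes had 1 library each and shared only the number 1, and for the same reason no replicate could be left out. No value varied here was past 1.5-fold in the report, so no reversal of such a value was possible. Of 208 values, 146 stayed within the counting interval or, for counts of genes, were equal or within a factor of 1.5. For single genes, 92 of 138 values stayed within the interval, and the sign of 19 differed from the value in the report. The median log2 ratio of the 7 genes over all nuclei (-0.04) was 0.0632 with scaling to a median of 0, -0.00466 without the 5% of nuclei with the highest doublet scores, 0.138 relative to the median of genes of similar length and -0.0744 in subclusters with at least 30 nuclei in each library, an alternative chosen after seeing the data. In neuronal clusters (0.02) it was 0.113 with that scaling, -0.0420 as a mean over nuclei and 0.116 relative to gene length. There it was also -0.0306 with the same subcluster weights in both libraries, -0.0153 in subclusters with at least 30 nuclei and 0.179 in glutamatergic nuclei. In neuron.1 (-0.11) it was -0.00923 with scaling and 0.0316 relative to gene length. Over all nuclei 1 gene, Kcna6, passed 1.5-fold relative to gene length, and 1, again Kcna6, passed with the lower of the 2 other fold limits tried. In neuronal clusters 1 channel gene, Kcna6, and 2 companion genes, Kcnab2 and Dlg1, passed that lower limit. Across the alternatives Kcna6 ran from 0.36 to 0.60 over all nuclei, from 0.23 to 0.56 in neuronal clusters and from -0.02 to 0.44 in oligo, and Kcna1 in oligo from 0.33 to 0.90. In oligo Kcna1 passed 1.5-fold with scaling (0.59) and relative to gene length (0.90). The larger thinned share in neuronal than in oligo nuclei held for 5 of the 7 genes under every alternative. Depth limits Kcna4 and Kcnc4 most, which had fewer than 20 UMIs in several clusters.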
